A study of Homo sapiens and Mus musculus with 9 samples.

Results

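CCND1, CDKN1A and MCM7 are 3 genes of the cell division cycle, examined here for where PXR eCLIP peaks fell within them in human cells. Counted were the peaks of the 3 human lists whose summit lay inside the hg38 span of 1 of these genes, and they numbered 10 of 3706 peaks. The HepG2 list held 3 of them, the list named for the PXR knockout LS174T cells held 0, and the list named for the wild-type LS174T cells held 7. The genes were chosen by the peaks already seen in them in these lists, so the number, place and depth of these peaks are given as a description without a test.

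Enhanced crosslinking and immunoprecipitation (eCLIP) fixes RNA to the proteins that touch it with ultraviolet light, trims the RNA with RNase I, pulls a protein down with an antibody and sequences what is attached. The protein here was the pregnane X receptor (PXR), a ligand-activated transcription factor of the nuclear receptor family that responds to drugs and bile acids. The human samples were HepG2, a hepatocellular carcinoma line, with 2 immunoprecipitates (IPs) made with an antibody to the HA tag and 1 input, and LS174T, a colorectal adenocarcinoma line, with 1 IP from PXR knockout cells, 1 IP from wild-type cells, both made with an antibody to PXR, and 1 input from wild-type cells. No drug treatment was labelled for any of them, and how the HA tag was introduced and how many clones the knockout represents are not given in the sources used here.

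Each list is 1 unit in which libraries are not told apart, so no value has a replicate spread. In the record the KO-named list belongs to the IP of wild-type LS174T and the WT-named list to the input, whereas the names of the lists and of their peaks read knockout IP and wild-type IP, in that order. They are called KO-named and WT-named here, and their difference is not read as one of genotype or of IP. The lists held 1557 (HepG2), 46 (KO-named) and 2103 (WT-named) peaks. Over all nuclear protein-coding genes, 5.45% had a HepG2 peak, 0.110% a KO-named peak and 7.23% a WT-named peak, so a count of 0 or 1 among about 10 marker genes is near the background. Of 10 hepatocyte genes, ALB among them, 0 had a HepG2 peak and HNF4A had a WT-named peak of 7 reads. Of 10 colon genes, CDH17 and EPCAM had a HepG2 peak, and CDX1, EPCAM, LGALS4, MUC2, PHGR1 and TFF3 had a WT-named peak. The markers thus do not bear out the label of the HepG2 list, but a count of 0 of 10 is near the background and cannot decide it. The 5.45% is a share over all coding genes, whatever their expression, and the lists do not show how much RNA each marker makes. Of 8 fibroblast and blood genes, 0 had a peak in any human list, which is also near the background.

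The cell cycle is driven by cyclin-dependent kinases, which need a cyclin to act and are held back by inhibitor proteins. Cyclin D1, the product of CCND1, is the G1 cyclin that partners CDK4 and CDK6 and leads to phosphorylation of the retinoblastoma protein. CDKN1A encodes p21, the cyclin-dependent kinase inhibitor that is induced after DNA damage. MCM7 encodes a subunit of the ring-shaped MCM helicase that is loaded on replication origins and unwinds DNA in S phase. All are expressed in dividing epithelial cells, and cyclin D1 and p21 mRNAs are known for rapid turnover controlled through their untranslated regions.

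All 3 genes had a peak in the HepG2 list, 0 had one in the KO-named list, and all 3 had one in the WT-named list. Among nuclear protein-coding genes 5.45% had a peak in HepG2, 0.110% in the KO-named list and 7.23% in the WT-named list, and since the genes were taken for having peaks nothing is read from that contrast. In the WT-named list CCND1 and CDKN1A carried 3 peaks each, which 99 of 20039 protein-coding genes (0.494%) reached, and MCM7 carried 1. In HepG2 each of the 3 genes carried 1 peak. Of those 99 genes, 31 likewise had exactly 1 peak in HepG2, 50 had none there and 18 had 2 or more.

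**Figure D1:**
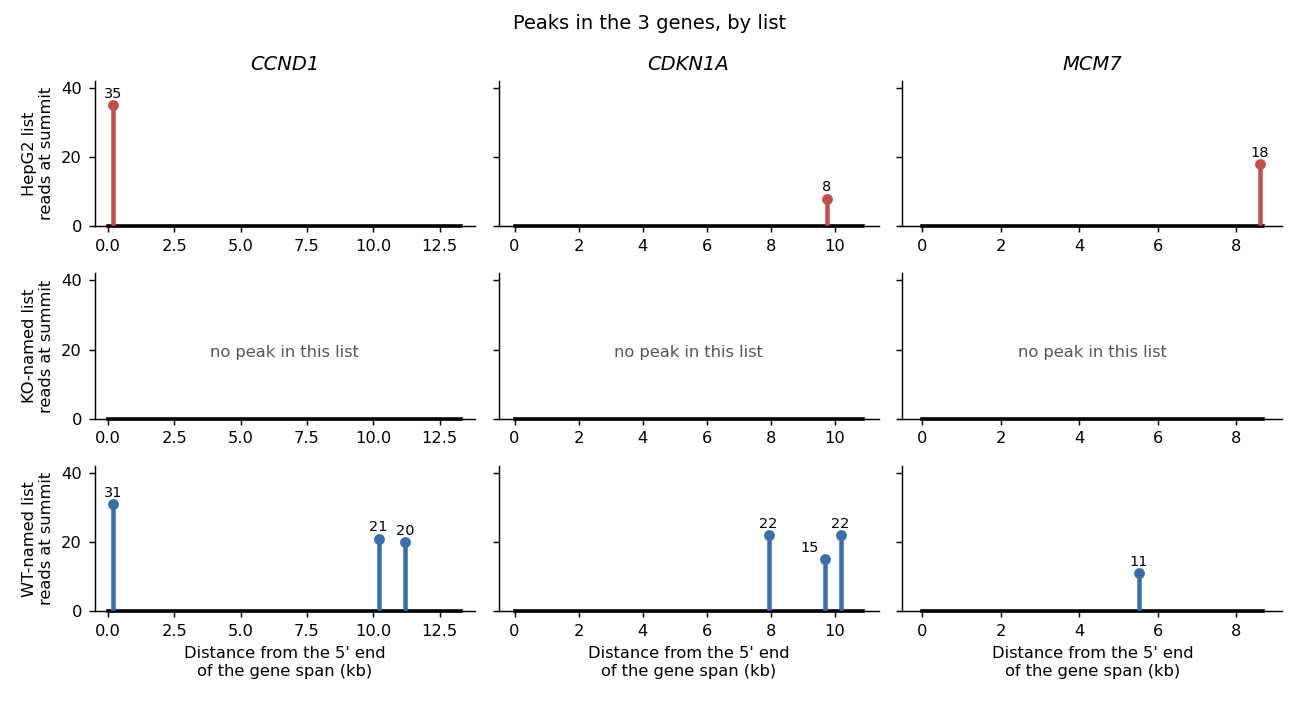
Reads at the summit of each peak (vertical axis) against its distance in kb from the 5′ end of the gene span (horizontal axis), for CCND1, CDKN1A and MCM7 in the HepG2, KO-named and WT-named lists; the black line is the gene span. CCND1 has a peak at the same place in HepG2 (35 reads) and in the WT-named list (31 reads), CDKN1A peaks gather toward the 3′ end, and the MCM7 peaks of the lists lie apart.

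The depth of a peak is given as reads at its summit, worked out from the authors' deposited fold and p-value of that peak. Intervals are 95% Poisson intervals and cover counting error only, since the reads may include PCR copies. The window of a peak is the 10 kb around its summit, from which the peak caller is assumed to have drawn its background. That the window reads are those of the same strand is assumed too. The deposited fold is taken as the reads at the summit plus 1 over the background reads plus 1.

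CCND1 lies on chromosome 11 from 69641156 to 69654474, and its transcript is read from the plus strand. HepG2 had 1 peak there, at chr11:69641257-69641485 on the plus strand, with its summit 198 bp from the start of the span. The WT-named list had a peak at chr11:69641210-69641583 with its summit 197 bp from that start, so the summits were 1 bp apart. The whole HepG2 peak, 229 bp wide, lay inside the 374 bp of the WT-named peak. Among 466 overlapping pairs of HepG2 and WT-named peaks in protein-coding genes, the summits of 59 pairs (12.7%), CCND1 included, were as close as this, and the median distance was 24 bp.

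The reads at this CCND1 site were 35 in HepG2 (interval 24.4 to 48.7), against 31 in the WT-named list (interval 21.1 to 44.0). These intervals overlap. The windows around the same base held 336 reads in HepG2, against 66 in the WT-named list, a ratio of 5.09. The summit therefore took 10.4% of its window in HepG2 against 47.0% in the WT-named list, and 301 HepG2 reads lay elsewhere within 5 kb of the summit, against 35 WT-named reads. The authors' deposited fold followed this, at 4.66 in HepG2 against 13.8 in the WT-named list. By reads the peak stood above 91.6% of the HepG2 list, but by deposited fold above only 18.2% of it. In the WT-named list it stood above 86.8% by reads and 90.8% by deposited fold.

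Over the 466 overlapping pairs the median ratio of HepG2 over WT-named window reads was 1.03 (quartiles 0.634 and 1.75), and that of summit reads was 0.923 (quartiles 0.564 and 1.40). The CCND1 pair had a window ratio higher than 457 of the pairs and a summit ratio (1.13) higher than 301. Its window ratio was 4.51 times its summit ratio, the highest of the 466 pairs, where the next highest was 2.57 and the median 1.12. The deposited lists do not show where in the window the other HepG2 reads lay, except that no second peak was called there. At this HepG2 background of 6.72 reads per 200 bp, a site needed at least 21 reads to reach the least significant p in the HepG2 list, against 9 reads at the WT-named background of 1.32. More RNA or more bound RNA around the CCND1 start in HepG2 cannot be told apart, and the cell line, the antibody (to the HA tag for HepG2 and to PXR for the LS174T IPs) and, if the record holds, IP against input all differ between these lists and cannot be told apart either.

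**Figure D2:**
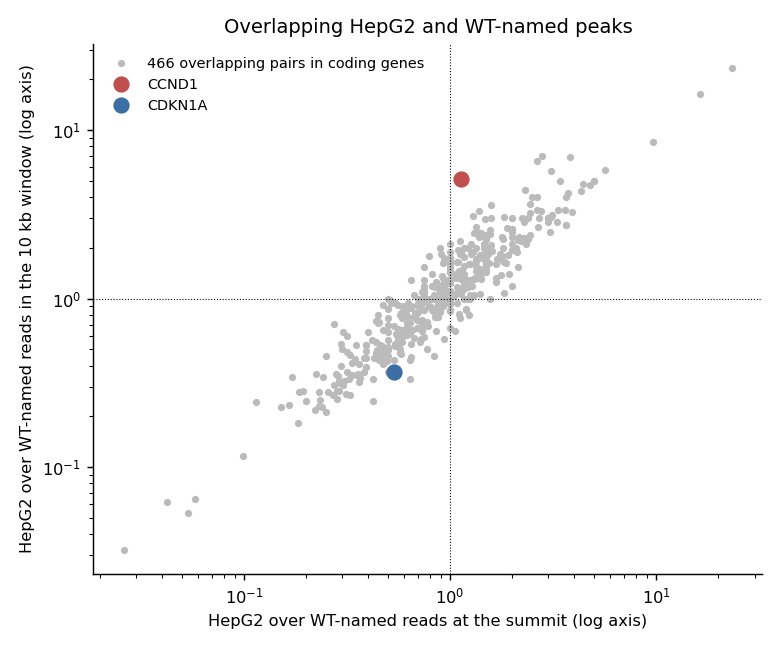
Each point is a HepG2 peak and the WT-named peak that it overlaps in a protein-coding gene, with the ratio of reads at the summit on the horizontal axis and the ratio of reads in the 10 kb window on the vertical axis, both HepG2 over WT-named and on log axes; dotted lines mark a ratio of 1. CCND1 (1.13 and 5.09) lies above the band of the other pairs, and CDKN1A (0.533 and 0.364) lies below 1 on both axes.

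The other CCND1 peaks were found in the WT-named list, at chr11:69651233-69651435 and chr11:69652333-69652534, both on the plus strand. Their summits lay 3119 bp and 2110 bp before the end of the span and 1009 bp from each other. They held 21 reads (interval 13.0 to 32.1) and 20 reads (interval 12.2 to 30.9), and these intervals overlap that of the 5′ peak. The 41 reads of these summits were 24.9% of the 165 reads in the window of the first. The windows of the 5′ peak and of the first downstream peak do not meet, and together they held 231 WT-named reads, of which 72 (31.2%) lay at the 3 summits. HepG2 had no peak in this downstream stretch, and since no HepG2 window reaches it, its HepG2 depth is not known. Among WT-named peaks of 20 to 39 reads in protein-coding genes, 29.4% overlapped a HepG2 peak, so a lack of a HepG2 partner is common at this depth.

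CDKN1A lies on chromosome 6 from 36676463 to 36687332 on the plus strand, and the start site in the RefSeq promoter table for GRCh38 is at 36678714, which is 2251 bp into the span. All 4 of its peaks were on the gene's own strand, with their summits in the last 3 kb of the span. HepG2 had 1 peak, at chr6:36686087-36686286, whose summit lay 1117 bp before the end of the span. The WT-named list had peaks at chr6:36684248-36684514, chr6:36686137-36686336 and chr6:36686533-36686822, with summits 2936, 1157 and 683 bp before the end. The HepG2 peak overlapped the middle of these by 150 bp, with summits 40 bp apart, a distance that 300 of the 466 pairs (64.4%) did not exceed.

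At this CDKN1A site HepG2 had 8 reads (interval 3.45 to 15.8), against 15 reads in the WT-named list (interval 8.40 to 24.7). The intervals overlap, and the ratio of 0.533 was higher than in 105 of the 466 pairs. The windows held 43 reads in HepG2, against 118 in the WT-named list, a ratio of 0.364 that was higher than in 44 of the pairs. The CDKN1A window thus held fewer reads in HepG2, and the summit count was lower too but with overlapping intervals, whereas for CCND1 the window ratio went the other way. For both genes the reads were not scaled for library depth, which the lists do not give. The summit took 18.6% of its window in HepG2 against 12.7% in the WT-named list, and the deposited fold was 4.84 for the HepG2 peak and 4.76 for the WT-named one.

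The other WT-named CDKN1A peaks held 22 reads each (interval 13.8 to 33.3). The 3 WT-named summits together held 59 reads, which is 46.1% of the 128 reads in the largest of their windows. In HepG2, 35 reads of the window lay outside the summit, and at that background a further site needed at least 7 reads to reach the least significant p in the list. The HepG2 peak of CDKN1A was the weakest of the 10, with a deposited −log10 q of 2.34 and 894th by reads of 1557. The strongest in this gene, the WT-named peak nearest the 3′ end, had a deposited −log10 q of 10.1.

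MCM7 lies on chromosome 7 from 100092728 to 100101397 on the minus strand, so its 5′ end is at the higher coordinate. The gene hosts hairpins of 3 microRNAs, MIR25, MIR93 and MIR106B, within its span. The last 2 of them are known to repress CDKN1A mRNA, which links 2 of the genes described here, and their mature sequences are shown because the hairpins lie between the MCM7 peaks of the lists. Sequences are from RefSeq for GRCh38, 5′ to 3′, with the seed (bases 2 to 8) in capitals.
hsa-miR-25-3p: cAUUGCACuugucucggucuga
hsa-miR-93-5p: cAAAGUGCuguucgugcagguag
hsa-miR-106b-5p: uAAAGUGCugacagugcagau
The seeds of miR-93-5p and miR-106b-5p are identical, and that of miR-25-3p differs from them. Neither MCM7 peak covered a hairpin. The HepG2 peak ended 636 bp from the MIR25 hairpin at chr7:100093560-100093643, and the WT-named peak lay 1801 bp from the MIR106B hairpin at chr7:100093993-100094074.

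HepG2 had 1 MCM7 peak, at chr7:100092716-100092923 on the minus strand, with its summit 80 bp from the 3′ end of the span. The peak itself reached 12 bp past that end. The WT-named list also had 1 peak, at chr7:100095876-100096075 on the minus strand, with its summit 3157 bp from the 3′ end and 5512 bp from the 5′ end. The summits were 3077 bp apart with 2952 bp between the peaks, so MCM7 had a peak in both lists but at different places. Of 506 protein-coding genes with a peak in both lists, 66 (13.0%) likewise had no HepG2 peak that overlapped a WT-named one.

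The HepG2 peak of MCM7 held 18 reads (interval 10.7 to 28.4), and the WT-named peak held 11 reads (interval 5.49 to 19.7). The deposited fold was 8.26 for the HepG2 peak and 6.19 for the WT-named peak. The summit took 27.7% of the 65 window reads in HepG2 and 23.4% of the 47 window reads in the WT-named list. Each window also covers the place of the other list's peak, and 47 reads in HepG2 against 36 in the WT-named list lay outside the summit. A site needed at least 9 reads in HepG2 and 7 reads in the WT-named list at these backgrounds. They are the backgrounds at each list's own summit, and the one at the other list's site is not known. The lists therefore do not show that the other's site was empty. At 10 to 19 reads, 44.6% of HepG2 peaks in protein-coding genes had a WT-named partner and 25.9% of WT-named peaks had a HepG2 partner.

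**Figure D3:**
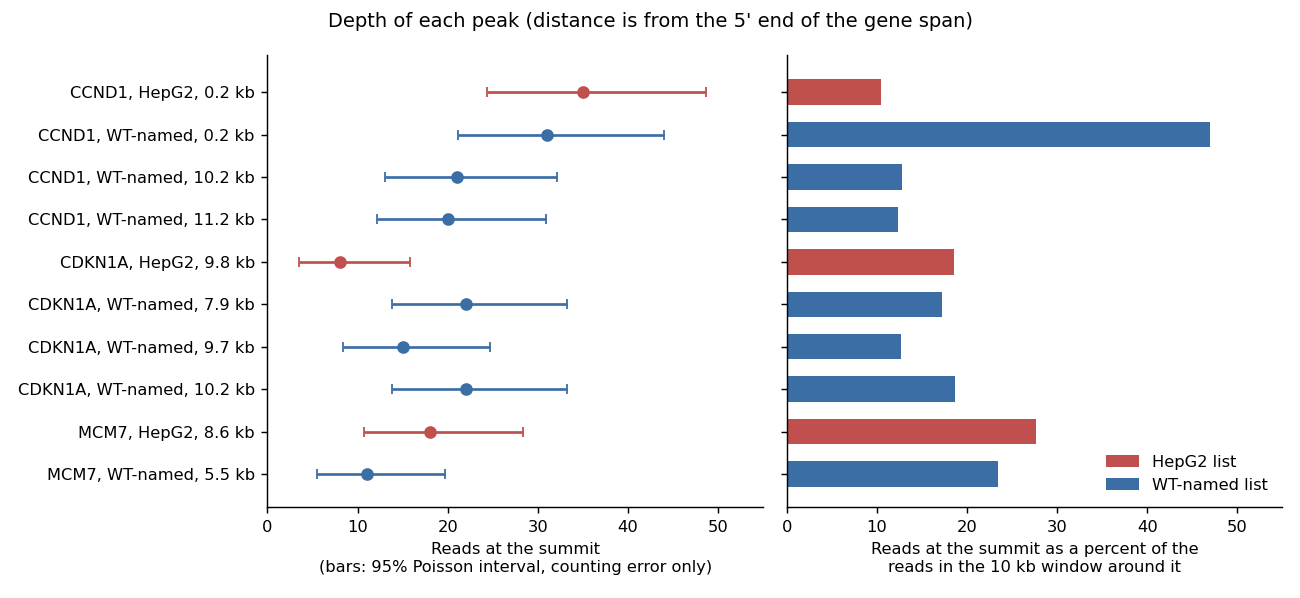
Left, reads at the summit of the 10 peaks with 95% Poisson intervals (counting error only); right, those reads as a percent of the reads in the 10 kb window. Rows give the gene, the list and the distance from the 5′ end of the span, and HepG2 stands above the WT-named list within each gene. CCND1 at 0.2 kb has similar reads in both lists, but 10.4% of the window in HepG2 against 47.0% in the WT-named list.

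In total 2 of the 3 HepG2 peaks overlapped a WT-named peak, and 2 of the 7 WT-named peaks overlapped a HepG2 peak. The background shares were 39.6% of HepG2 peaks and 25.5% of WT-named peaks in protein-coding genes. The peaks ranged from 8 to 35 reads (median 18) in HepG2 and from 11 to 31 reads (median 21) in the WT-named list, where the median over the whole list was 9 in HepG2 and 11 in WT-named. Deposited folds ranged from 4.66 to 8.26 in HepG2, against a list median of 6.94, and from 4.76 to 13.8 in the WT-named list, against a list median of 7.35. The summits took 10.4 to 27.7% of their windows in HepG2 and 12.3 to 47.0% in the WT-named list. Over the 466 overlapping pairs the median share was 50.0% in HepG2 against 61.4% in the WT-named list, and the share of all 10 peaks was below those medians. Most of the 10 peaks are in no such pair, and the pairs include peaks with no other reads in their window. By deposited fold, the HepG2 peak of MCM7 (8.26) and the WT-named 5′ peak of CCND1 (13.8) stood above their list medians.

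By position, peaks near the 5′ end were common in both lists. Among peaks in 1 protein-coding gene of known strand, the summit lay within 500 bp of the 5′ end for 40.4% in HepG2 against 37.2% in the WT-named list, and within 500 bp of the 3′ end for 12.9% of HepG2 and 12.6% of WT-named peaks. The shared CCND1 site lay as near its 5′ end as the first kind, but CCND1 was not among these genes of known strand and is not in the shares. The HepG2 site of MCM7 belongs to the second kind. The peaks of CDKN1A and the downstream peaks of CCND1 lay between 683 and 3119 bp before the 3′ end. Peaks matched the strand of their gene in 86.9% of cases in HepG2 against 95.9% in the WT-named list, as the peaks of CDKN1A and MCM7 did without exception. Exon and UTR boundaries were not used here, so these are positions in the gene span and not in the mRNA.

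The KO-named list had no peak in the 3 genes. Its 46 peaks rested on a median of 19 reads, and peaks as shallow as those described here seldom had a KO-named partner in any gene. Of WT-named peaks in protein-coding genes, 0 of 649 with 10 to 19 reads and 8 of 299 with 20 to 39 reads (2.68%) overlapped a KO-named peak, and over all depths 1.26% did. All 7 WT-named peaks of the 3 genes fall in these ranges. The missing KO-named peaks are therefore near the background for any gene at this depth, and an effect of genotype or of the antibody was not tested.

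No peak of the 3 lists lay within 20 kb outside the spans. DINOL, a lncRNA inside the CDKN1A span on the opposite strand, and PANDAR, a lncRNA 1337 bp outside that span, both known to be induced by DNA damage, had 0 peaks. Neither did AP4M1, which overlaps the 5′ end of MCM7 on the plus strand, or COPS6, whose span ends 541 bp from MCM7. The nearest outside peak was 69084 bp from MCM7, a WT-named peak of 6 reads in ZKSCAN1.

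The 3 genes were then set beside 102 genes in 6 lists of the cell cycle and of pathways that act on it. In all, 14 of the 102 genes had a peak in HepG2 (13.7%), 0 in the KO-named list and 12 in the WT-named list (11.8%), against the background of 5.45% in HepG2, 0.110% in the KO-named list and 7.23% in WT-named. Without CCND1, CDKN1A and MCM7 these were 11 of 99 in HepG2 and 9 of 99 in the WT-named list. No set test was run, and peaks also depend on how much RNA a gene makes, which the lists do not show.

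**Figure D4:**
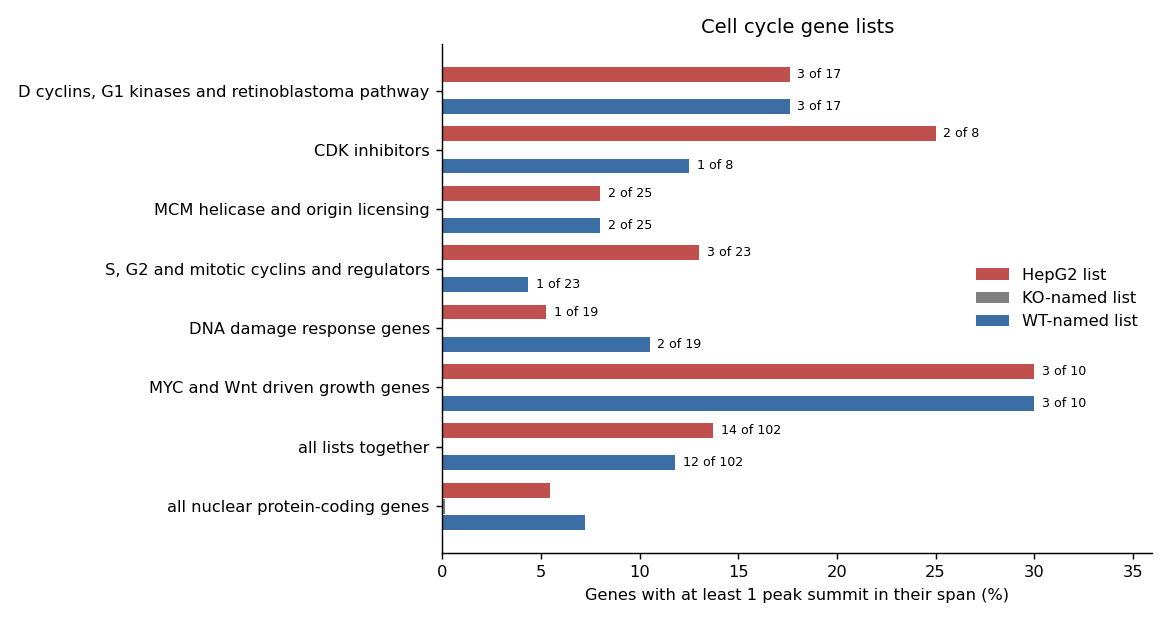
Percent of genes with at least 1 peak summit in their span (horizontal axis), for 6 gene lists, for these together and for all nuclear protein-coding genes; bars are the HepG2, KO-named and WT-named lists from top to bottom, with counts beside them. The KO-named list has 0 genes in each gene list, and the lists together stand at 13.7% in HepG2 against 11.8% in the WT-named list.

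Among the D cyclins, G1 kinases and retinoblastoma pathway genes, 3 of 17 had a peak in HepG2 and 3 of 17 in the WT-named list, with CCND1 the gene in both. CCND2, which encodes cyclin D2, had a WT-named peak of 21 reads with its summit 341 bp from the start of its span, a place it shares with the antisense gene CCND2-AS1. CDK6, the kinase that cyclin D1 activates, had a WT-named peak of 8 reads. RB1, which encodes the retinoblastoma protein, had a HepG2 peak of 3 reads at a place it shares with the pseudogene PPP1R26P1, and its relative RBL2 had 7 reads 200 bp from its 5′ end. CCND3 and CDK4 had no peak in either list.

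Of 8 inhibitor genes, CDKN1A and CDKN1B had a peak in HepG2 and CDKN1A in the WT-named list. CDKN1B encodes p27, the inhibitor of cyclin E and CDK2, and its HepG2 peak held 9 reads with its summit 278 bp from the 5′ end, unlike the 3′ position in CDKN1A. Of 25 helicase and licensing genes, MCM7 and PCNA had a peak in both lists, and the other MCM subunit genes had none. PCNA, which encodes the sliding clamp of DNA polymerase, held 12 reads in HepG2 and 11 reads in the WT-named list at overlapping places, where PCNA-AS1 also lies.

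Among mitotic and S to G2 genes 3 of 23 had a peak in HepG2, namely CDC25B (13 reads), PKMYT1 (13 reads) and the proliferation marker MKI67 (6 reads), and 1 of 23 in the WT-named list, the kinase gene WEE1 (7 reads). Of 19 genes of the DNA damage response, the cyclin G gene CCNG1 (6 reads) had a peak in HepG2, and GADD45A (19 reads) and the 14-3-3 sigma gene SFN (9 reads) in the WT-named list. MDM2 had none. CDKN1A belongs to the damage response by function too, and was counted with the inhibitors.

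The list of growth genes of the MYC and Wnt pathways had 3 of 10 in HepG2 and 3 of 10 in the WT-named list, the same genes in both. CTNNB1, which encodes beta-catenin, held 9 reads in HepG2 and 25 reads in the WT-named list at an overlapping 5′ site, and a further WT-named peak of 14 reads. MYC, the transcription factor gene whose product raises CCND2 transcription, held 27 reads in HepG2 and 14 reads in the WT-named list at an overlapping site, and a further WT-named peak of 19 reads toward the 3′ end. JUN, whose product activates CCND1, held 12 reads in HepG2 and 10 reads in the WT-named list at places that did not overlap.

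Of 19 genes of these lists with a peak in HepG2 or the WT-named list, 7 had one in both, 7 in HepG2 alone and 5 in the WT-named list alone. Over all protein-coding genes with a HepG2 peak, 46.3% also had a WT-named peak. Of those with a WT-named peak, 34.9% also had a HepG2 peak. CCND1, CDKN1A and MCM7, chosen for their peaks, are among the 7, so nothing is read from this count. Of the 7 in both, CCND1, CDKN1A, CTNNB1, MYC and PCNA had an overlapping peak, and JUN and MCM7 did not. By the reads of its deepest peak CCND1 led the 14 genes in HepG2 at 35 reads and the 12 in the WT-named list at 31 reads. By deposited fold it did not. MCM7 led in HepG2 (8.26 against 4.66 for CCND1) and CTNNB1 in the WT-named list (14.6 against 13.8 for CCND1).

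Genes with a like depth were sought among 506 protein-coding genes with a peak in both lists, by the distance of the log2 reads of their deepest peaks. Nearest to CCND1, with 35 HepG2 and 31 WT-named reads, were H1-4 (33 HepG2 and 34 WT-named reads), SCD (35 HepG2 and 27 WT-named reads) and H1-2 (33 HepG2 and 27 WT-named reads). Nearest to CDKN1A, with 8 HepG2 and 22 WT-named reads, were HNRNPUL2, PGK1 and PPP2CB, each with 9 HepG2 and 23 WT-named reads. Nearest to MCM7, with 18 HepG2 and 11 WT-named reads, were JUNB and NHERF1 (19 HepG2 and 11 WT-named reads each) and MRFAP1 (18 HepG2 and 10 WT-named reads). This is a likeness of read numbers over 2 lists.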

How the data were processed

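Per the submitters' processing notes, cutadapt, BWA and MACS2 were used with builds hg38 and mm10; versions, settings and any pooling of IP replicates are not given in the sources used here. Peak by peak, the authors' deposited lists give a score, a fold enrichment (ratio), and −log10 p and q, with no header. The deposited score is 10 times −log10 q without its decimals in 3706 of 3706 human peaks. Strand was taken from the deposited lists.

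Reads n at the summit and background λ were solved from fold = (n + 1) / (λ + 1) and p, the Poisson chance of exceeding n, with λ a multiple of 0.02 (200 bp in a 10000 bp window, assumed from the limit of fold near 50). All 10 peaks of the 3 genes had 1 solution. On simulated peaks 1557 of 1557 (HepG2), 46 of 46 (KO-named) and 2103 of 2103 (WT-named) were recovered. They were simulated with the same formula and step, so this checks only the solving and not the assumed window. Genes were assigned by summit with the RefSeq GRCh38 gene table, every span that holds the summit counting, and strand was taken from the promoter table. Overlap meant at least 1 bp on the same strand.

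The genes, the gene lists and the tests were chosen with earlier results of these data known. Named genes were the 3 genes, list genes with a peak, neighbours, and the 3 nearest genes by depth; other list genes are named as having none, and 1 planned list gene is not reported here. The mouse liver list was not analysed here. Python 3.11.15, scipy 1.17.1 and pandas 2.3.3 were used.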

Additional observations from a re-analysis of the deposited data

How the results depend on the processing

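No paired analysis was possible because each list is 1 unit without values per replicate, and for the same reason no replicate could be left out. With deposited −log10 q of at least 5, HepG2 kept 2 of its 3 peaks (CDKN1A was lost) and the WT-named list 6 of its 7, so 1 HepG2 peak and 1 WT-named peak, the shared CCND1 site, overlapped instead of 2. With at least 10 reads the counts were 2 in HepG2 and 7 in WT-named. Cell cycle list genes with a HepG2 peak numbered 8 at the stricter q and 7 at 10 reads, against 14, where the alternative leaves fewer peaks; the WT-named counts were 10 at the stricter q and 9 at 10 reads, against 12. The KO-named counts stayed at 0. Any overlap of peak and span, the gene's strand (CCND1 has none in the table) and an overlap of 0.5 of both peaks left the counts as they were. Reads solved without the whole-number condition were the same for all 10 peaks. They come from the same formula for fold and p, so this checks neither that formula nor the assumed window. Shallow peaks of 8 to 35 reads limit every comparison of depth.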
